A study of Mus musculus with 8 samples.

Results

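The genes described here encode muscle ubiquitin ligases and products of genes controlled by FoxO transcription factors, measured in the left ventricle of mice that lack Nppb, the gene of B-type natriuretic peptide, and of wild-type mice. The set holds 10 genes of the 41128 in the deposited table, namely Fbxo32, Trim63, Trim54, Trim55, Klhl38, Fbxo30, Foxo3, Sesn1, Glul and Txnip, and all 10 passed the filter on low values. The genes were chosen by name with earlier results of the same knockout contrast known, among them the lower Fbxo32 value in the authors' deposited table. Differences between the genotypes are therefore given as a description. The p-values printed with them were computed on the contrast that chose the genes and are not read as tests of the set.

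All 8 animals were of the FVB strain, aged 8 to 12 weeks. The wild-type group held 4 left ventricles and the Nppb KO group 4, the mutants carrying a CRISPR deletion within exon 2 of Nppb and the controls being their littermates. The labels also name Myh6-MerCreMer, nTnG and Sun1/sfGFP reporter mice as bred on the FVB/N background, without saying that these samples carry those alleles. RNA came from whole ventricular tissue, in which fewer cells of a type and less RNA per cell cannot be told apart.

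Muscle loses protein largely through the ubiquitin-proteasome system, in which an E3 ligase selects the protein to be tagged for degradation. FoxO transcription factors are held in the cytoplasm by insulin and Akt signalling, and in the nucleus they activate ligase genes such as Fbxo32 and Trim63 and genes of autophagy and metabolism. In heart muscle the same ligases turn over sarcomere and Z-disc proteins and limit hypertrophic signalling.

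The DNA-binding domain of FoxO proteins prefers a core sequence that is written GTAAACA. RefSeq promoters of build GRCm38.p6, each covering 250 bases before to 50 bases after a gene's start, were matched for 7 of the 10 genes and comprised 8 windows, Sesn1 having a pair. Fbxo32, Trim55 and Klhl38 had no entry, so their promoters were not searched. GTAAACA or its reverse complement TGTTTAC occurred in 3 of the 8 windows, those of Trim63, Sesn1 and Txnip, against 3.65% of all 32851 mouse promoters in the same table. The windows are shown because they are the ones with a match, which is printed in capitals. The Trim63 window is chr4:134314870-134315169 (plus strand), the Sesn1 window chr10:41810324-41810623 (plus strand) and the Txnip window chr3:96557707-96558006 (plus strand).
Trim63: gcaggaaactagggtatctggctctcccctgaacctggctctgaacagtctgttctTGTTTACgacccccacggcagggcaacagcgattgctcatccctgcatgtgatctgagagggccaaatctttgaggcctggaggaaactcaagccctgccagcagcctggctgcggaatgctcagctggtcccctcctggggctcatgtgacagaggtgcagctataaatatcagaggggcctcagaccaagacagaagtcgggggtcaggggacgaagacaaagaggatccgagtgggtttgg
Sesn1: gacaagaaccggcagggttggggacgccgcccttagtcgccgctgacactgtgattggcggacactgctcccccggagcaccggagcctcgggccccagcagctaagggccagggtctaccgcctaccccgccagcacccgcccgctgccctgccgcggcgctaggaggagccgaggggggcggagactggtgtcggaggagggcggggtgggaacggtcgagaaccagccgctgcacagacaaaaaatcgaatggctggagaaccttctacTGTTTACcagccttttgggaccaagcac
Txnip: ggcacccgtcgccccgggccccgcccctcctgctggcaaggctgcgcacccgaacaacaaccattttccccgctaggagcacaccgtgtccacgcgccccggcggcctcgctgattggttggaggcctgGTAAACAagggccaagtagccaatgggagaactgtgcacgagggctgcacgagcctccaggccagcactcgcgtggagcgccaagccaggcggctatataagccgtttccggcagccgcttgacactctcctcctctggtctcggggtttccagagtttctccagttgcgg
In the Trim63 window the match began 194 bases before the start and lay on the reverse strand. The Sesn1 match also lay on the reverse strand, from base 23 after the start. The Txnip match lay on the forward strand 121 bases before the start, between matches to CCAAT at 137 and 102 bases before it. The related sequence GTAAATA (reverse complement TATTTAC) was in 0 of the 8 windows and in 3.04% of all promoters, and the E-box CACGTG, its own reverse complement, in 0 of 8 and 7.15%. CCAAT or ATTGG was in 6 of the 8 and in 37.4% of all promoters, and TATAAA or TTTATA in 1 of the 8, that of Trim63 at 31 bases before the start, and in 13.6%. The base composition of the 8 windows ranged from 54.0% to 79.7% GC, with a median over all promoters of 52.7%. These matches describe letters in a window and do not show binding.

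The libraries held 20284865 to 34742840 reads in genes. Nppb, which checks the labels, had normalized counts of 2713, 1839.6, 2761 and 4619 in the wild types and of 4.13, 1.54, 4.09 and 2.25 in the knockouts. The 8 cardiomyocyte markers summed to 1198932 to 1311160 in the wild types and to 1106880 to 1276822 in the knockouts, with 8 of 8 estimates below 0 and a median log2 difference of -0.04. Of the 10 skeletal muscle markers, Tnnc2, Pvalb and Myf6 were at 0 in every sample. Tnnt3, Tnni2, Atp2a1 and Mybpc1 reached at most 13.7, 9.75, 11.6 and 5.40 normalized counts. The fast myosin genes Myh1 and Myh4 had means of 5733 and 1585 over all samples, and Myh2 of 32.5. Reads can be shared with related myosins, and whether they were was not tested. The summed list lay at 7323 to 7602 in the wild types and 6228 to 8434 in the knockouts. Macrophage markers were above 0 in 6 of 6 estimates with a median of 0.16 and sums of 2589.5 to 3425 against 3014 to 3363, and smooth muscle markers in 4 of 5 with a median of 0.23 and sums of 5121 to 6496 against 5924 to 7389. Adipocyte markers went the other way at very low counts, with sums of 20.6 to 100.7 in the wild types and 10.2 to 30.5 in the knockouts. Among them Adipoq had 5.34, 6.87, 5.32 and 19.5 against 3.30, 0.772, 4.09 and 3.38 without overlap, and Cfd, the 1 adipocyte marker that passed the filter, had a log2 difference of -1.06. Erythroid markers lay below 0 in 5 of 5 estimates, with a median of -0.08 and sums of 39459 to 57827 against 40707 to 53485. Fibroblast markers lay below 0 in 4 of 6 with a median of -0.02, and endothelial markers in 2 of 6 with a median of 0.02. Of 3 atrial markers tested, 1 lay below 0, Stard10 at -0.17 without overlap. Cidea, the 1 brown adipocyte marker tested, had 0.19, and no lymphocyte marker passed the filter. No marker passed limma's adjusted threshold, and the part of these differences in the values below was not tested.

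All 10 genes had a lower mean in the knockouts, by a log2 difference of -0.0017 to -0.55 and a median of -0.24, where the median over all 16590 tested genes was 0.002. Of all tested genes, 49.1% lay below 0. Klhl38, Glul, Fbxo32, Txnip, Trim63 and Sesn1 had the larger differences, and Trim54 and Trim55 lay nearest to 0. Every knockout animal lay below every wild type for 3 of the 10, Fbxo32, Klhl38 and Sesn1, a pattern that 1.74% of all tested genes showed. Of the 40 knockout values of the set, 25 lay below the lowest wild-type value of their gene. These values come from the same few animals, and the matching share over all tested genes was not computed.
None of the 10 passed the adjusted threshold in limma (0.00603% of tested genes did so with a lower value), and the adjusted p ran from 0.450 to 0.999. At an unadjusted p under 0.05, 5 of the 10 were lower, namely Fbxo32, Klhl38, Fbxo30, Sesn1 and Glul, against 3.29% of all tested genes. DESeq2 on the recovered whole reads called 1 of the 10, Fbxo32, with an adjusted p of 0.0318. It gave an adjusted p to 7906 genes, Klhl38 not among them, and called 0.253% of these lower. In the authors' deposited table Fbxo32 was also the single member with an adjusted p under 0.05, at 0.00605, and 0.337% of the genes with an adjusted p there were called lower. Because the contrast chose the genes, nothing is read from these counts.

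**Figure D1:**
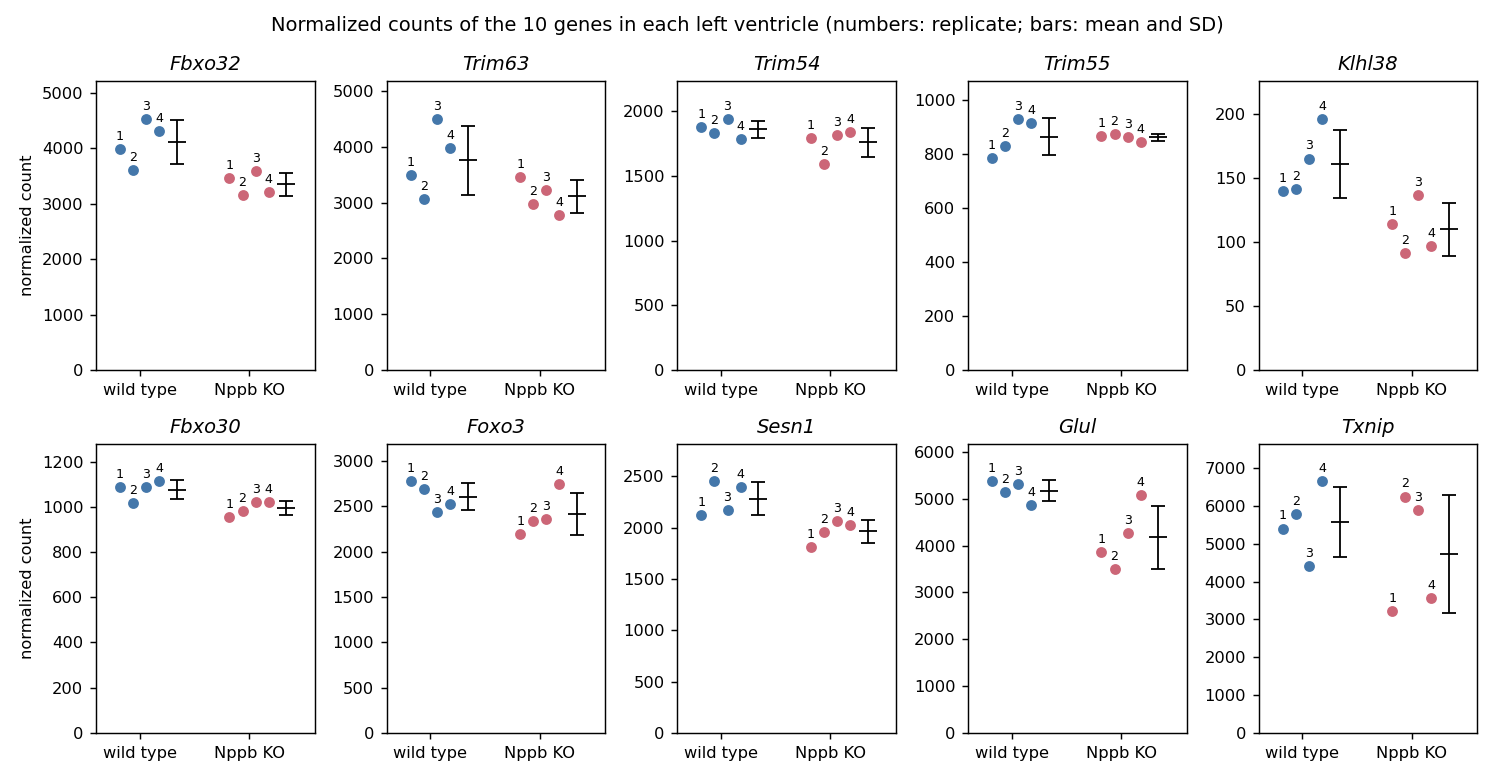
Normalized counts of the 10 genes in each of the 4 wild-type and 4 Nppb KO left ventricles. Points are animals and the offset bar gives the mean and SD of each group. Knockout points of Fbxo32, Klhl38 and Sesn1 lie below all wild-type points, and those of Txnip fall into a low and a high pair.

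Among the F-box ligases, Fbxo32 (ENSMUSG00000022358, mm10 chr15:58175879-58214932, minus strand) encodes atrogin-1, the substrate receptor of an SCF ubiquitin ligase in striated muscle. Its normalized counts were 3991, 3609, 4529 and 4305 in wild types 1 to 4 and 3460.1, 3147, 3591 and 3206 in knockouts 1 to 4. The groups did not overlap, although the highest knockout lay just under the lowest wild type. Mean levels of 4109 ± 399.5 (SD, n = 4) in the wild types and 3351 ± 209.8 (SD, n = 4) in the knockouts, 18.4% lower, gave a log2 difference of -0.29 (SE 0.07).
Fbxo30 (ENSMUSG00000047648, mm10 chr10:11281330-11298052, plus strand) encodes MUSA1, another F-box protein, which in denervated skeletal muscle of mice is required for atrophy. It was measured at 1088, 1016, 1086 and 1112 in the wild types and at 956, 981, 1019.8 and 1021 in the knockouts. The groups met through wild type 2, the lowest control, which lay below knockouts 3 and 4. The log2 difference was -0.11 (SE 0.05).

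Klhl38 (ENSMUSG00000022357, mm10 chr15:58314573-58324169, minus strand) belongs to the kelch-like family, whose BTB domains join substrates to cullin-based ligases. It was the least abundant of the set, with 139.6, 141, 165 and 196 normalized counts in the wild types and 114, 91.1, 137 and 96.9 in the knockouts. No knockout reached the lowest wild type, and knockout 3 came within a few counts of it. The mean was 31.6% lower in the knockouts and the log2 difference was -0.55 (SE 0.14). Between 86 and 183 reads per library stood behind these values, and the authors' deposited table gave it a p-value of 0.00129 and no adjusted one.
Klhl38 and Fbxo32 are neighbours on chromosome 15, separated by a gap of 99.6 kb. No annotated gene lies wholly within the gap, but an antisense gene spans it. The antisense gene Gm15943 overlaps both, with normalized counts of 38.9, 34.3, 43.9 and 30.3 in the wild types and 15.7, 22.4, 20.4 and 16.9 in the knockouts. Those groups did not overlap, in the same direction as Fbxo32 and Klhl38. The library kit marks strand, but no label or file says whether counting used it, so reads of Gm15943 and of its partners may not be fully separated. At its highest Gm15943 held 43.9 counts, which is small beside Fbxo32 and not small beside Klhl38.

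The 3 muscle RING-finger genes encode ligases that sit on the sarcomere and bind titin or microtubules. Trim63 (ENSMUSG00000028834, mm10 chr4:134315120-134329629, plus strand), which encodes MuRF1, was counted at 3485, 3064, 4500.1 and 3977 in the wild types and at 3465, 2973, 3228 and 2778 in the knockouts. The groups overlapped, since wild type 2 lay below knockouts 1 and 3. Wild types averaged 3757 ± 620.5 (SD, n = 4) and knockouts 3111 ± 299.6 (SD, n = 4), a log2 difference of -0.26 (SE 0.12). It came to -0.17 without wild type 3 and to -0.36 without wild type 2. Trim63 shares chromosome 4 with Nppb, at a distance of 13.7 Mb.
Trim54 (ENSMUSG00000062077, mm10 chr5:31116712-31137630, plus strand) encodes MuRF3 and was counted at 1878, 1836, 1943 and 1789 in the wild types and at 1795, 1595, 1820.0 and 1837 in the knockouts. Knockout 2 stood below the rest, and the other three knockouts lay inside the wild-type range. The log2 difference was -0.08 (SE 0.05), -0.03 without knockout 2 and -0.10 without knockout 4.
Trim55 (ENSMUSG00000060913, mm10 chr3:19644474-19692421, plus strand), the MuRF2 gene, was counted at 784, 828, 930.1 and 914 in the wild types and at 865, 873, 861 and 845 in the knockouts. All 4 knockouts lay between the second-lowest and second-highest wild types. The log2 difference was -0.0017 (SE 0.06), and the authors' deposited table had it at 0.0011, on the other side of 0. Leaving out 1 animal at a time gave -0.05 to 0.03.

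**Figure D2:**
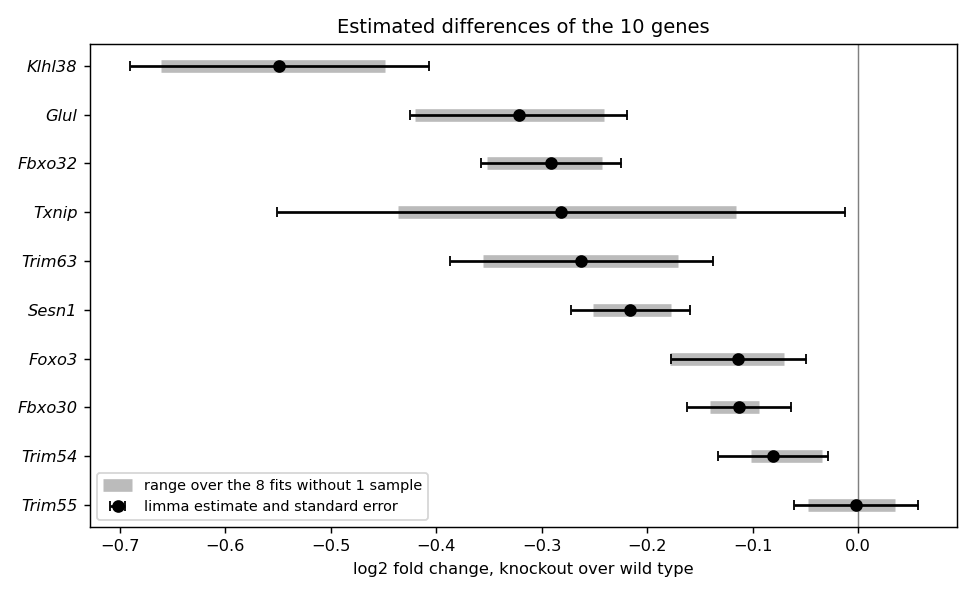
Log2 difference of each gene, Nppb KO over wild type, on the log2(normalized count + 1) scale. Points and whiskers are limma's estimate and standard error, and the grey bar spans the estimates of the 8 fits that leave out 1 animal each. The bar crosses 0 for Trim55, while the others stay below 0.

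Foxo3 (ENSMUSG00000048756, mm10 chr10:42181841-42276755, minus strand) encodes the FoxO factor that drives atrophy genes in muscle. It was counted at 2775, 2686, 2438 and 2527 in the wild types and at 2199.7, 2343, 2365 and 2751 in the knockouts. Knockouts 1 to 3 lay below every wild type and knockout 4 near the highest. The log2 difference was -0.11 (SE 0.06), and it was -0.18 without knockout 4 and -0.07 without knockout 1.
Sesn1 (ENSMUSG00000038332, mm10 chr10:41809935-41908424, plus strand) encodes a sestrin, which restrains the growth kinase complex mTORC1 when leucine is low and is a FoxO and p53 target. Counts were 2121, 2451, 2173 and 2393 in the wild types and 1810.1, 1959, 2069 and 2023 in the knockouts. All knockouts lay below all wild types, with a log2 difference of -0.22 (SE 0.06). Sesn1 and Foxo3 lie 273 kb apart on chromosome 10 with 1 protein-coding gene between them, Armc2, whose log2 difference was -0.08 (SE 0.07).

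Glul (ENSMUSG00000026473, mm10 chr1:153899944-153909723, plus strand) encodes glutamine synthetase, which makes glutamine from glutamate and ammonia and is a FoxO target in several cell types. Counts were 5367, 5138, 5308 and 4863 in the wild types and 3861, 3488, 4267 and 5073 in the knockouts. The wild types lay close together, with a coefficient of variation of 4.37%, and the knockouts were spread over 16.3%. Knockouts 1 to 3 lay below every wild type and knockout 4 among them, which gave a mean difference of -0.32 (SE 0.10) on the log2 scale.
Txnip (ENSMUSG00000038393, mm10 chr3:96557957-96561883, plus strand) encodes an alpha-arrestin that binds thioredoxin and restrains glucose uptake. It was counted at 5404, 5793, 4424 and 6649 in the wild types and at 3211, 6250.4, 5892 and 3571 in the knockouts. Knockouts 1 and 4 lay below every wild type, whereas knockouts 2 and 3 lay within the wild-type range. The coefficient of variation was 33.0% in the knockouts and 16.6% in the wild types, and the log2 difference of -0.28 had an SE of 0.27, about as large as itself. Without knockout 2 the difference was -0.44, without knockout 1 it was -0.12 and without knockout 4 it was -0.17. Arrdc4, a related arrestin gene controlled by the same glucose-sensing factors, had 283, 310.0, 318 and 345 counts in the wild types and 369, 371, 292 and 306 in the knockouts. Arrdc4 also fell into a high and a low pair of knockouts, but the pairs were others, knockouts 1 and 2 being high and 3 and 4 low.

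Which animals were low differed from gene to gene. Knockout 1 lay below the lowest wild type for 7 of the 10 genes, knockout 2 for 8, and knockouts 3 and 4 for 5 each. The share of all tested genes for which each animal did so was not computed, so the counts only describe the set. Relative to the wild-type mean, the median deviation over the set was -0.24 in knockout 1, -0.22 in knockout 2, -0.14 in knockout 3 and -0.12 in knockout 4 on the log2 scale, and between -0.04 and 0.07 in the wild types. Txnip was the lowest gene in knockout 1, Klhl38 in knockouts 2 and 4, and Glul in knockout 3. The wild types differed among themselves too, with Trim63 at -0.28 in replicate 2 and 0.28 in replicate 3, and Klhl38 at 0.30 in replicate 4.
Fbxo32 and Trim63 ranked the 4 wild types in the same order, replicate 3 highest and replicate 2 lowest. Their orders differed in the knockouts, where Fbxo32 was highest in replicate 3 and lowest in replicate 2, and Trim63 highest in replicate 1 and lowest in replicate 4. By the root mean square difference of centred log2 values over the 8 samples, Trim63 was number 24 in likeness to Fbxo32 among 11122 genes with a mean of at least 50, unnamed gene models left out, at 0.084. Fbxo30 was number 300, Klhl38 number 4492 and Txnip number 10744. The 5 nearest were Dhrs3 at 0.039, a retinal reductase gene on the chromosome of Nppb, then Cd46 at 0.056, Brpf3 at 0.057, D2hgdh at 0.060 and Nub1 at 0.061. All 5 had lower knockout means, which the measure uses.

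**Figure D3:**
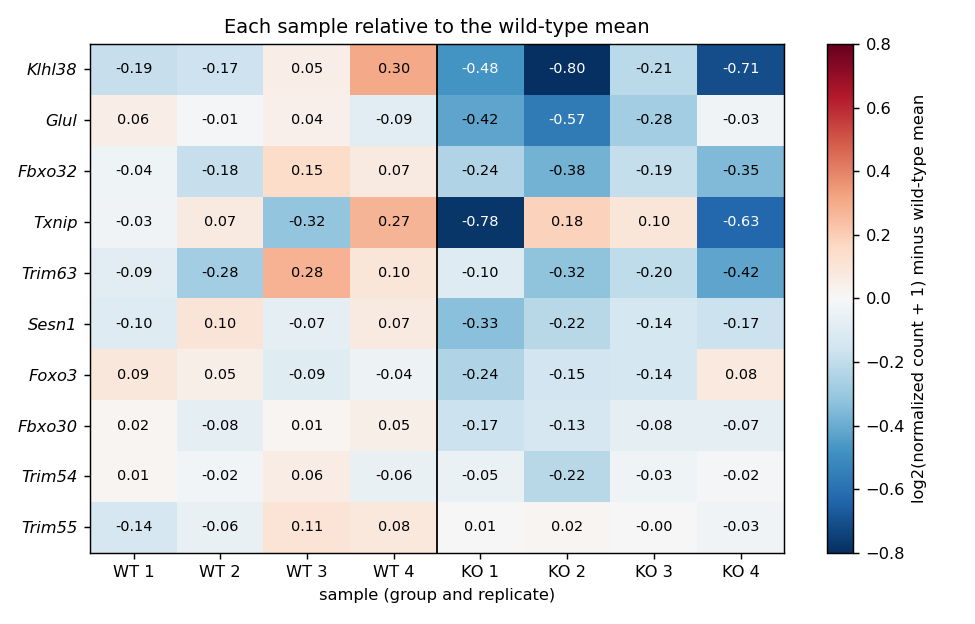
Log2(normalized count + 1) of each gene in each of the 8 animals minus the wild-type mean of that gene, with the value printed in each cell and blue for lower. Within its own row Txnip has its lowest values in knockouts 1 and 4, and Glul has its lowest in knockouts 1 and 2. Fbxo32 is below the wild-type mean in all 4 knockouts.

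Levels of different genes were compared as normalized counts per kilobase of exon. In the wild types Txnip was highest at 1783 ± 295 (SD, n = 4), followed by Glul at 1556 ± 68.0, Trim63 at 1322 ± 218 and Trim54 at 1296 ± 45.5. Fbxo32 at 589 ± 57.3 and Sesn1 at 574 ± 40.6 came next, then Foxo3 at 344 ± 20.1, Trim55 at 325 ± 26.2, Fbxo30 at 207 ± 7.92 and Klhl38 at 72.5 ± 11.9. The ranges of neighbours in this order overlapped among Txnip, Glul, Trim63 and Trim54, between Fbxo32 and Sesn1, and between Foxo3 and Trim55. They did not overlap between Trim54 and Fbxo32, Sesn1 and Foxo3, Trim55 and Fbxo30, or Fbxo30 and Klhl38.
In the knockouts the order was the same except that Trim54 stood above Trim63, Sesn1 above Fbxo32 and Trim55 above Foxo3, each within overlapping ranges. Foxo3 was the most abundant FoxO gene per exon length in the wild types, above Foxo4 at 188 ± 10.3, Foxo1 at 39.9 ± 4.38 and Foxo6 at 11.2 ± 2.48 (SD, n = 4). Sesn1 likewise stood above Sesn2 at 19.6 ± 3.67 and Sesn3 at 12.3 ± 0.728. Among F-box genes of muscle, Fbxo40 at 1268 ± 61.4 lay above Fbxo32, and Fbxo31 at 288 ± 17.8 and Fbxo21 at 106 ± 6.18 lay below it.

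**Figure D4:**
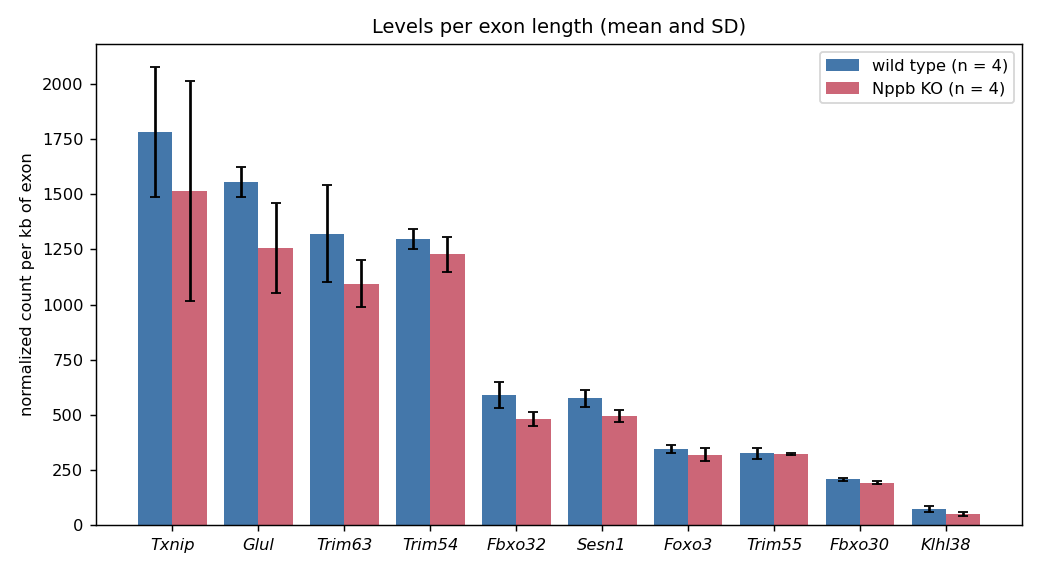
Normalized counts per kilobase of exon for the 10 genes, ordered by the wild-type mean. Bars are group means and whiskers the SD over 4 animals. The order runs from Txnip at 1783 to Klhl38 at 72.5 in the wild types.

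The wider pathway was described with 9 lists of related genes, of which 164 of 168 genes were tested. Like the 10, the lists were chosen with earlier results of these data known. Their counts and shares are therefore a description and are not read as support. None of the 164 passed limma's adjusted threshold in either direction, 17 (10.4%, against 3.29% of all tested genes) were lower and 1 higher at an unadjusted p under 0.05, and 12 (7.32%, against 1.74%) were lower without overlap. Their estimates lay below 0 for 105 (64.0%, against 49.1%) and above 0 for 59, with a median log2 difference of -0.03, nearer to the median over all genes than to that of the 10.
Among 16 other F-box proteins and cullin ligase subunits, 7 estimates lay below 0 and 9 above, with a median of 0.01. Fbxo31 had -0.15 (SE 0.05), Fbxo21 -0.10 (SE 0.06) and Fbxo40 -0.07 (SE 0.05) as log2 differences. Of 10 kelch genes 8 lay below 0, with a median of -0.07, Klhl33 at -0.34, Klhl24 at -0.14 and Kbtbd12 at -0.09. Of 30 other muscle ligases 15 lay on each side of 0. Ubr2, Asb15 and Ube4b at -0.15, -0.18 and -0.13 were lower without overlap, 10% of the list against 1.74% of all tested genes. Of 15 partners and substrates of the MuRF proteins 13 lay below 0 with a median of -0.05, among them Sqstm1, the autophagy receptor p62, at -0.24 (SE 0.09) and Nbr1 at -0.06 (SE 0.04), and Fhl2 lay above 0 at 0.09 (SE 0.05). Nbr1 was the 1 gene of these 15 that was lower without overlap, 6.67% of the list against 1.74%.
FoxO factors and their regulators, 27 tested, had 11 estimates below 0 and 16 above with a median of 0.02. Crebbp, an acetyltransferase of FoxO proteins, had a log2 difference of -0.13 (SE 0.04) and the kinase gene Akt2 of -0.10 (SE 0.05). These were the 2 genes of the list that were lower without overlap, 7.41% of it against 1.74% of all tested genes. Sgk1, a kinase that phosphorylates FoxO proteins, had 0.22 (SE 0.09), Foxo1 -0.15 (SE 0.09) and Foxo4 -0.10 (SE 0.07), each with overlap. Among 34 other FoxO targets 27 lay below 0, with a median of -0.07, and 6 were lower without overlap, which is 79.4% and 17.6% of the list against 49.1% and 1.74% of all tested genes. Those 6 were Retreg1, Gabarapl1, Ppargc1a, Pdk4, the catalase gene Cat at -0.11 (SE 0.05) and the autophagy kinase gene Ulk2 at -0.10 (SE 0.05). Ddit4, which restrains mTORC1, went the other way at 0.57 (SE 0.33), with overlap. Its counts were 183, 134, 162 and 184 in the wild types and 458, 182, 161 and 264 in the knockouts. Retreg1, an endoplasmic reticulum autophagy receptor, had 4615, 4193, 5639 and 4623 counts in the wild types and 3537, 3352, 3801 and 3237 in the knockouts. The groups of Retreg1 did not overlap, the log2 difference was -0.45 (SE 0.08) and limma's adjusted p was 0.319. The phosphoinositide kinase inhibitor gene Pik3ip1 had -0.34 (SE 0.09) and the autophagosome gene Gabarapl1 -0.27 (SE 0.07). Ppargc1a, the PGC-1alpha gene, had -0.49 (SE 0.12).
The 16 genes induced by glucocorticoids had 12 estimates below 0 and a median of -0.12, with Pdk4, which inhibits pyruvate dehydrogenase, at -0.80 (SE 0.26) and Klf15 at -0.17 (SE 0.08). Sgk1 at 0.22 and Ddit4 at 0.57, both also in this list, lay above 0, each with overlap. The 12 relatives of TXNIP and their regulators had 7 below 0 and a median of -0.02, with Mlxipl, a glucose-sensing factor, at -0.22 (SE 0.08), Arrdc3 at -0.16 (SE 0.07) and Mlxip at -0.08 (SE 0.08). The 13 genes of glutamine metabolism had 9 below 0 and a median of -0.02, and none was as low as Glul. Those with the smallest p were Gpt at -0.14 (SE 0.08), Gpt2 at -0.11 (SE 0.08) and, on the other side, the transporter gene Slc38a1 at 0.26 (SE 0.20).

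**Figure D5:**
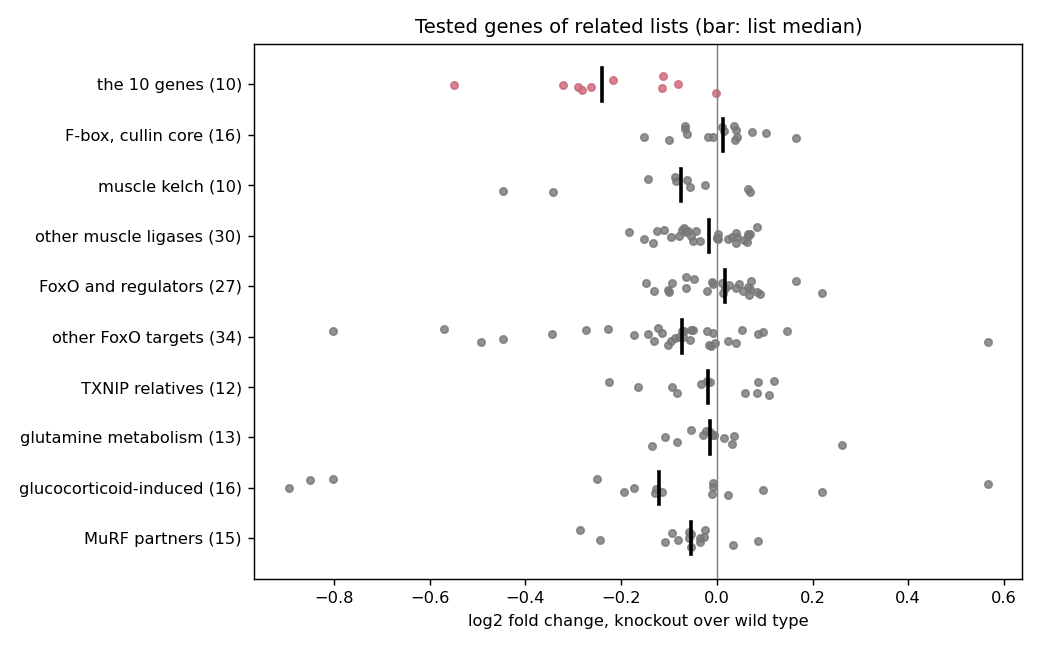
Log2 difference, Nppb KO over wild type, of every tested gene of the 10 and of the 9 related lists, with the number tested in parentheses. Each point is a gene and the bar is the list median, which is -0.24 for the 10 genes and between -0.12 and 0.02 for the other lists.

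Acta1, the skeletal alpha-actin gene, set a pair of animals apart, with 7346, 21464, 7349 and 7589 counts in the wild types and 7133, 8025, 10921 and 18867 in the knockouts. Wild type 2 and knockout 4 were the high samples. Wild type 2 had the lowest wild-type Fbxo32 and Trim63, and knockout 4 the highest knockout Glul and Foxo3. Other genes went the other way, wild type 2 having the highest wild-type Sesn1 at 2451 and knockout 4 the lowest knockout Trim63 at 2778. Without wild type 2 the log2 difference of Fbxo32 was -0.35 and limma's adjusted p was 0.0399, and without knockout 4 that of Glul was -0.42 with an adjusted p of 0.0493. Leaving out knockout 2 instead gave a limma adjusted p of 0.957 for Fbxo32 and of 0.957 for Glul, so nothing is read from these fits. The part of what sets these animals apart was not tested.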

How the data were processed

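RNA was measured in 8 left ventricles, grouped by the genotype labels, with replicate numbers from the titles. A stranded kit received 900 ng of total RNA for paired-end sequencing of 125 bp, per the labels' protocols. The submitters' processing notes name STAR, DESeq2 and mm10. How reads were counted, and whether by strand, is not stated in the labels. The per-sample signal that the authors deposited is normalized counts, and a second deposited table holds the log2 ratio of wild type to knockout with its raw and adjusted p-value. Each sample's values were whole multiples of 1 step, within 0.01 reads for 100% of values, so whole reads were recovered. Depth limits precision mainly for Klhl38.

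limma 3.58.1 in R 4.3.3, with a trend and robust moderation, was fitted to log2(normalized count + 1) of the 16590 genes with a mean of at least 10, with Benjamini-Hochberg adjustment and a threshold of 0.05. Differences on this scale are understated for low genes, and the p-values cover only the spread among these animals. Alternatives were pseudocounts, filters, scalings, sample weights, edgeR 4.0.16 and DESeq2 1.42.0 on whole reads, a replicate block and leaving out each animal. The fits were tested on simulated data. Coordinates and exon lengths came from GENCODE M21, which uses mm10, and 40254 gene IDs matched; Retreg1 is listed under an older symbol and was matched by ID. The members and the lists were chosen with earlier results of these data known. Named genes were the 10, Nppb, up to 3 genes per list with the smallest p and a mean of at least 50, and the 5 nearest to Fbxo32. Outside that rule, and chosen after their values were seen, are Foxo1, Foxo4, Foxo6, Sesn2, Sesn3, Arrdc4, Acta1, Gm15943, Armc2, Ppargc1a, Cat, Ulk2 and Ddit4.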

Additional observations from a re-analysis of the deposited data

Results flagged for a closer look

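In 55 genes, the 10, Nppb, the genes named from the lists, those nearest to Fbxo32 and those named outside the rule, each group of 4 animals was checked for a highest or lowest value set far apart, measured as its gap to the nearest value divided by the group's range and compared with Dixon's 95% critical value. The check marked 5 of 110 groups, and chance marks about 1 in 20. None of the 5 was one of the 10 genes. Gabarapl1 had 1174 normalized counts in knockout 2 where the other knockouts had 1411 to 1460.3, a gap of 0.8294 of the range. Sqstm1 had 4804 in the same animal where the others had 5815 to 5986, a gap of 0.856. Slc38a1, a glutamine transporter gene, had 202 in that animal where the others had 100.1 to 116, a gap of 0.843. Fhl2, which binds MuRF proteins in the sarcomere, had 18638 in wild type 4 where the others had 17114 to 17275, a gap of 0.894. Acta1 had 21464 in wild type 2 where the others had 7346 to 7589, a gap of 0.983.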

How the results depend on the processing

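Across 19 alternatives the 10 genes gave 190 log2 differences, of which 186 stayed below 0 and 4, all of Trim55, lay above 0, and none moved by more than the spread between replicates. Limma called 2 genes of all tested (Nppb lower, Nppa higher), 5 without a filter on low values and 4 with sample weights, DESeq2 called 23, and leaving out 1 animal gave 1 to 6. Of the 10 genes limma and edgeR called 0 (5 at an unadjusted p under 0.05 in limma), DESeq2 called 1, and leaving out 1 animal gave 0 to 1, the calls being Fbxo32 without wild type 2 and Glul without knockout 4. Klhl38 has no DESeq2 adjusted p. Of the 9 related lists limma called 0 (17 lower and 1 higher at an unadjusted p under 0.05), edgeR 0 and DESeq2 2, Ppargc1a and Retreg1. DESeq2 gave no adjusted p to 29 of the 164 tested list genes. Of all genes with a DESeq2 adjusted p, it called 0.253% lower. The cause of these moves was not tested. With a replicate block, 3 genes were called over all genes, 0 of the 10 and 2 of the lists, again Ppargc1a and Retreg1. Same-numbered samples correlated at -0.038, 0.026, -0.032 and -0.069 in their deviations from the group means, so the numbers were not taken to pair the samples. Scaling alternatives moved the median of all genes by less than 0.1.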
